A study of Mus musculus with 9 samples.

Results

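The proteasome genes were examined in the inflamed colon of mice given human mesenchymal stem cells (MSCs). They were taken as every protein-coding row of the gene table whose symbol starts with *Psm*, a letter from a to g and a digit. This gave 50 genes of 38087 rows, 22571 of them protein-coding. The genes were sorted by role into 14 constitutive subunits of the 20S core, 5 immunoproteasome genes (*Psmb8*, *Psmb9*, *Psmb10*, *Psme1* and *Psme2*), 19 subunits of the regulatory particles and 8 assembly factors and inhibitors. The remaining 4 were *Psma8* and *Psmb11*, whose products replace core subunits in testis and thymus, *Psmc3ip*, a cofactor of meiotic recombination that is no proteasome subunit, and *Psme2b-ps*, an intronless copy of *Psme2* that the table types as protein-coding.

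All animals were male C57BL/6 mice of 10 to 12 weeks with colitis from dextran sulfate sodium (DSS), a salt that injures the colonic epithelium when drunk. The injection into a vein held MSCs of adipose tissue (AD-MSC), MSCs of umbilical cord tissue (UC-MSC) or only phosphate-buffered saline (Control). RNA of the medial colon was taken the day after, with 3 libraries in each of the 3 groups. The MSCs were human donor cells in a mouse host, no group without colitis was analysed here, and all groups were sampled while DSS was still being given. The table holds 1 mean per gene and group, made by the authors, so no spread between mice could be computed, no difference has a replicate check, and no p-values are given.

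The proteasome is the barrel-shaped protease that degrades proteins tagged with ubiquitin. Its 20S core stacks rings of α and β subunits, and the β subunits β1 (*Psmb6*), β2 (*Psmb7*) and β5 (*Psmb5*) cut the substrate. Interferon-γ induces the alternative catalytic subunits β1i (*Psmb9*), β2i (*Psmb10*) and β5i (*Psmb8*), which replace them in newly built cores to form the immunoproteasome, and the PA28αβ cap (*Psme1* and *Psme2*). The immunoproteasome is abundant in leukocytes and appears in inflamed epithelium, where it shapes the peptides loaded on MHC class I. The 19S regulatory particle unfolds tagged proteins with its ATPases (*Psmc* genes) and recognises and trims ubiquitin with its non-ATPase subunits (*Psmd* genes).

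Promoter sequences are shown for 5 members, because their transcripts stood apart or were set against those that did, and 4 of them carry letters that resemble binding motifs of the interferon pathway or of general transcription factors. They are RefSeq windows of 300 bases on GRCm38.p6, from 250 bases before to 50 after an annotated transcription start, on the gene's strand, with the matches to the motifs searched in capitals. *Psmb8* (chr17:34197945-34198244, plus strand), the immunoproteasome gene that was higher in both MSC groups, has no match to the motifs searched in this window. Its window lies inside the gene, whose annotated bounds begin at 34197721, and does not cover the bases before them. The printed windows of *Psmb9* and *Psme1* also lie inside their genes' bounds, while those of *Psmb5* and *Psmb4* reach beyond theirs. *Psmb9* (chr17:34187281-34187580, minus strand) has CCAAT on the opposite strand. *Psme1* (chr14:55578244-55578543, plus strand) has overlapping matches to AANNGAAA, the letters of an interferon regulatory factor (IRF) site, on the opposite strand. *Psmb5* (chr14:54617946-54618245, minus strand) has a match to TGACNNNGC, an antioxidant response element, and *Psmb4* (chr3:94886909-94887208, minus strand) has the ETS core CCGGAA and, further on, AANNGAAA, both on the opposite strand.
Psmb8: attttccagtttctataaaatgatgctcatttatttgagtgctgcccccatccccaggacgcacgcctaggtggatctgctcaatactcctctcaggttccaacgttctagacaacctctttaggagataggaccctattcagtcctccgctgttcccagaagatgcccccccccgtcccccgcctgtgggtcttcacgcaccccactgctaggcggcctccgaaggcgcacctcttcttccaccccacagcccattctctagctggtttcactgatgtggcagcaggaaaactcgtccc
Psmb9: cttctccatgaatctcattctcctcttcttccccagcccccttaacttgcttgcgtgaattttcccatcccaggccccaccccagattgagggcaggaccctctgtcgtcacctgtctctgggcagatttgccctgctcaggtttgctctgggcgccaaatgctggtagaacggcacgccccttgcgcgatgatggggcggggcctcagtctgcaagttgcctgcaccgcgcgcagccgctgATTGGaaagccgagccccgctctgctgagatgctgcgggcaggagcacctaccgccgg
Psme1: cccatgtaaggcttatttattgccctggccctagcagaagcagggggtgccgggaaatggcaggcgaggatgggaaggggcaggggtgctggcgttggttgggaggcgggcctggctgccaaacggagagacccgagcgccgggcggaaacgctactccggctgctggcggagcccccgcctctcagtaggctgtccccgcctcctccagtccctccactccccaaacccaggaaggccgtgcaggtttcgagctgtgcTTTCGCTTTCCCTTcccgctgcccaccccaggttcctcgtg
Psmb5: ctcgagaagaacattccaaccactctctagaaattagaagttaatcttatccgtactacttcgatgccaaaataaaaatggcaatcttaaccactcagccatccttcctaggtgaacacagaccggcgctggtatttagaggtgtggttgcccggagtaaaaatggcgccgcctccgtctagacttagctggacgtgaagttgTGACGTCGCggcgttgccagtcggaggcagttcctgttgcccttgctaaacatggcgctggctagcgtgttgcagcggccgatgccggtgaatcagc
Psmb4: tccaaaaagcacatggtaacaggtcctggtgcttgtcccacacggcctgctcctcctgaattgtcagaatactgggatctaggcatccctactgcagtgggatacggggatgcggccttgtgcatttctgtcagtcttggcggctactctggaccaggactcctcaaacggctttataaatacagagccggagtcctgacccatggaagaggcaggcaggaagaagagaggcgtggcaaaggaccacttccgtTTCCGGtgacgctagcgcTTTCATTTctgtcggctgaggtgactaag

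Of the 50 genes, 49 reached the minimum of 10 normalized reads on average over the groups, and these 49 were compared. They include every constitutive, immunoproteasome, regulatory and assembly gene. That each had reads in every library was inferred from the raw and normalized group means, because values of single libraries were not available. Normalized reads are reads divided by a library size factor, averaged by the authors on the log2 scale within a group. *Psma8* was below the minimum, at 1.39 normalized reads in AD-MSC, 1.99 in UC-MSC and 1.81 in Control colons. Differences are given on the log2 scale between group means. The interval beside a difference covers counting error only, at 95%, from the raw reads of the 3 libraries of each group, and is a lower limit of the error. A gene was called different, with no test, where the larger of both group means was to the smaller at least as 5 to 4, which is 25% higher or 20% lower.

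The constitutive subunits of the core were lower in both MSC groups than in Control colons. In AD-MSC colons, 14 of 14 had lower means than in Control, against 51% of all 15040 genes compared, and 7 were called lower, against 17.8% of all genes. In UC-MSC colons, 13 of 14 were lower, against 51.8% of all genes, and 9 were called lower, against 23%. The median log2 difference of the 14 was -0.31 (range -0.79 to -0.01) for AD-MSC and -0.37 (range -0.76 to 0.03) for UC-MSC, where the median over all genes was -0.01 with AD-MSC and -0.02 with UC-MSC. Both comparisons use the same Control libraries and are therefore not independent of each other.

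The regulatory particles showed the same direction. Against Control, all 19 subunits were lower in AD-MSC colons (51% of all genes) and all 19 in UC-MSC colons (51.8% of all genes). Of them, 8 were called lower for AD-MSC, against 17.8% of all genes, and 6 for UC-MSC, against 23%. The median difference of the 19 from Control was -0.29 in AD-MSC colons and in UC-MSC colons it was -0.18. With equal group totals these medians were -0.32 for AD-MSC and -0.31 for UC-MSC. In bulk tissue, fewer cells that make a transcript and less transcript per cell cannot be told apart, and this holds for each difference given here.

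The immunoproteasome genes were mixed in direction in AD-MSC colons and mostly lower in UC-MSC colons. In AD-MSC colons 3 of 5 were higher than in Control and 2 lower, against 51% of all genes lower. Of the 5, *Psmb8* was called higher, against 16.8% of all genes. In UC-MSC colons 1 of 5 was higher and 4 were lower, against 51.8% of all genes lower. Of these 4, *Psme1* (-0.02) and *Psmb10* (-0.10) had counting intervals that include 0, and *Psme2* was called lower, against 23% of all genes. No immunoproteasome gene was called higher in UC-MSC colons, against 24.7% of all genes. Over 5 genes, these calls and their absence cannot be told apart from the shares of all genes. The median of the 5 was 0.07 (range -0.22 to 0.40) for AD-MSC and -0.10 (range -0.60 to 0.20) for UC-MSC. With 5 genes, the median rests on single members, and without the 3 that share more than 10% of their sequence windows with other genes the UC-MSC median was 0.052.

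The groups also differed in depth and in markers of other cells. Raw group means, summed over all genes, came to 8.22e+06 reads in AD-MSC, 5.03e+06 in UC-MSC and 7.30e+06 in Control. Because the raw means appear to be averaged on the log2 scale, these sums stand only roughly for depth. Summed over the marker list, the normalized reads of 5 B cell genes were 18.7 in AD-MSC, 71.4 in UC-MSC and 162 in Control colons. Those of 5 T cell genes were 43.4 in AD-MSC, 28.8 in UC-MSC and 57.7 in Control. Only 2 of the 5 T cell genes, *Cd3e* and *Lck*, reached the minimum of 10 normalized reads. With AD-MSC, *Lck* was lower than Control (-0.86) and *Cd3e* was near it (0.03, counting interval -0.60 to 0.66). With UC-MSC both were lower, at -0.88 for *Lck* and -0.43 for *Cd3e* (interval -1.25 to 0.38). Of the rest, *Cd3d* had 11.1 with AD-MSC against 11.0 for Control, while *Cd3g* and *Trac* were lower with AD-MSC. The sums over 4 macrophage genes were 964 in AD-MSC, 1933 in UC-MSC and 1101 in Control, the greater part being *Lyz2*. Of these 4 genes, 2 were lower and 2 higher in AD-MSC than in Control, and all 4 were higher in UC-MSC. The sums over 3 pan-leukocyte genes were 326 in AD-MSC, 683 in UC-MSC and 538 in Control. Epithelial markers summed to 59700 in AD-MSC, 53518 in UC-MSC and 44920 in Control, and smooth muscle markers to 66286 in AD-MSC, 88905 in UC-MSC and 56612 in Control. *Muc2* had the greatest share of the epithelial sum, and *Cdx2* (-0.89) and *Slc26a3* (-0.25) were lower in UC-MSC than in Control. Fat markers summed to 212 in AD-MSC, 179 in UC-MSC and 360 in Control. The colonic epithelial markers were thus present in every group, and the part of the other cell types in the proteasome differences was not tested.

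**Figure D1:**
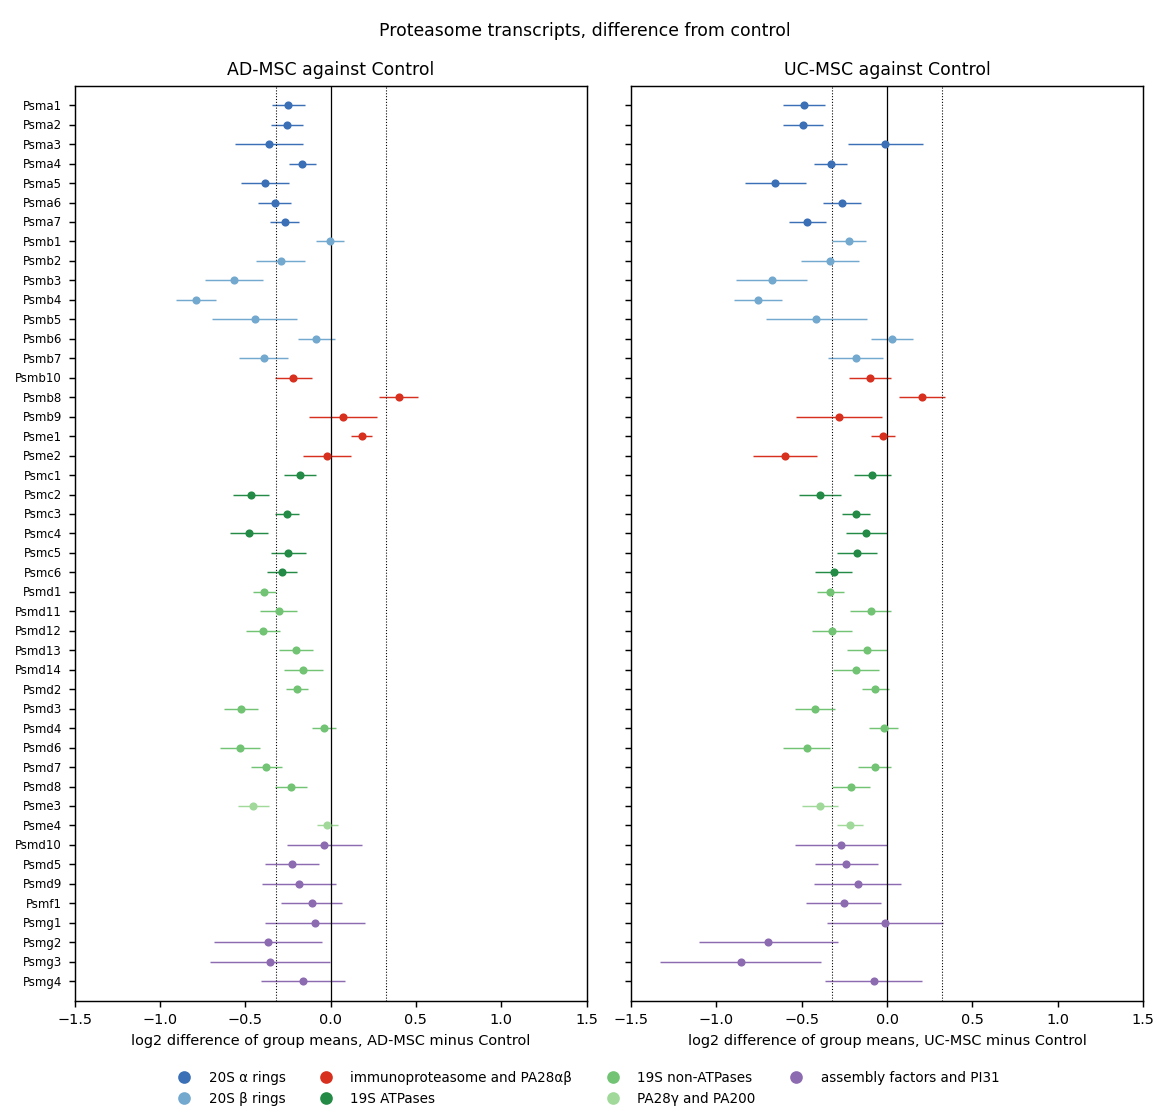
Log2 differences of group means from Control for the core, immunoproteasome, regulatory and assembly genes, AD-MSC on the left and UC-MSC on the right. Points are group mean differences, bars the 95% counting interval and dotted lines the limits of a call; most points lie left of 0, and *Psmb8* (red) lies right of 0 in both panels, at 0.40 and 0.20.

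*Psmb8*, which encodes the β5i subunit with chymotrypsin-like activity, lies on chromosome 17 between *Tap1* and *Tap2* (chr17:34197721-34201454). Its mean was 406 normalized reads in AD-MSC, 355 in UC-MSC and 308 in Control colons. Both MSC groups were thus above Control, and the difference was 0.40 for AD-MSC (counting interval 0.29 to 0.51, 1.32-fold) and 0.20 for UC-MSC (0.07 to 0.34, 1.15-fold).

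*Psmb5*, whose β5 product is the subunit that β5i replaces, had means of 61.1 in AD-MSC, 62.4 in UC-MSC and 83.2 in Control colons. It was lower in both MSC groups, by 1.36-fold for AD-MSC (log2 difference -0.45, counting interval -0.70 to -0.20) and by 1.33-fold for UC-MSC (-0.42, -0.71 to -0.12). *Psmb5* shares 57.1% of the 50-base windows of its longest protein-coding transcript with other annotated genes, mainly *Gm3375*, so part of its reads could have been left out or assigned elsewhere.

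The ratio of *Psmb8* to *Psmb5* does not depend on how the groups were scaled. Its level is uncertain, because *Psmb5* shares 57.1% of its windows with other genes. Per kilobase of transcript the ratio was 3.67 in AD-MSC, 3.14 in UC-MSC and 2.05 in Control colons. It was 1.795-fold higher in AD-MSC than in Control (log2 difference 0.84, counting interval 0.57 to 1.12) and 1.54-fold higher in UC-MSC than in Control (0.62, 0.29 to 0.94). UC-MSC minus AD-MSC was -0.23, with a counting interval of -0.56 to 0.11 that includes 0.

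*Psmb9*, encoding β1i, had 116 normalized reads in AD-MSC, 90.6 in UC-MSC and 110 in Control colons. Its constitutive counterpart *Psmb6* had 368 in AD-MSC, 398 in UC-MSC and 390 in Control. *Psmb6* differed little between groups, at -0.08 for AD-MSC (counting interval -0.19 to 0.02) and 0.03 for UC-MSC (-0.09 to 0.15), and the sign of the UC-MSC value turned with the scaling (-0.10 with equal group totals). The log2 ratio of *Psmb9* to *Psmb6* differed from Control by 0.16 in AD-MSC (-0.07 to 0.38) and by -0.31 in UC-MSC (-0.59 to -0.03). Between the MSC groups, it was lower by 1.38-fold in UC-MSC than in AD-MSC (log2 difference -0.47, -0.74 to -0.20).

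*Psmb10*, encoding β2i with trypsin-like activity, had 361 normalized reads in AD-MSC, 393 in UC-MSC and 421 in Control colons. Its counterpart *Psmb7* had 189 in AD-MSC, 219 in UC-MSC and 249 in Control. Both genes thus had lower means in both MSC groups. *Psmb10* was at -0.22 for AD-MSC and at -0.10 for UC-MSC, where the counting interval of -0.22 to 0.02 includes 0. *Psmb7* was at -0.39 for AD-MSC and -0.18 for UC-MSC. Their log2 ratio differed from Control by 0.18 in AD-MSC and 0.08 in UC-MSC, with counting intervals that include 0. *Psmb7* shares 28.1% of its windows with *Nek6*, which it overlaps on the other strand.

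**Figure D2:**
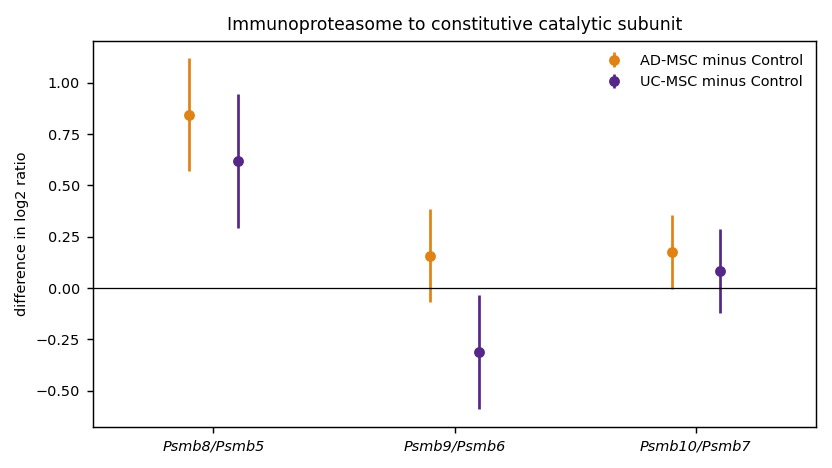
Difference from Control in the log2 ratio of each immunoproteasome catalytic subunit to the constitutive subunit it replaces, AD-MSC left and UC-MSC right of each pair. Bars are 95% counting intervals; *Psmb8*/*Psmb5* lies above 0 in both groups at 0.84 and 0.62, and *Psmb9*/*Psmb6* lies at 0.16 and -0.31.

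*Psme1*, encoding PA28α, was the member with the highest level per kilobase of transcript, at 1224 normalized reads in AD-MSC, 1063 in UC-MSC and 1080 in Control colons. Its log2 difference from Control was 0.18 in AD-MSC (counting interval 0.12 to 0.24) and -0.02 in UC-MSC (-0.09 to 0.05). *Psme2*, encoding the partner PA28β, had 223 normalized reads in AD-MSC, 149 in UC-MSC and 226 in Control colons. UC-MSC colons stood apart from both others, at -0.60 against Control (-0.79 to -0.41, 1.52-fold lower), while AD-MSC was at -0.02 (-0.16 to 0.12). The copy *Psme2b-ps* on chromosome 11 had 199 normalized reads in AD-MSC, 169 in UC-MSC and 204 in Control, and was at -0.27 for UC-MSC and -0.04 for AD-MSC. *Psme2* and the copy share 59.3% of the windows of *Psme2* and 69.3% of those of the copy, so how reads were divided between them is uncertain.

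**Figure D3:**
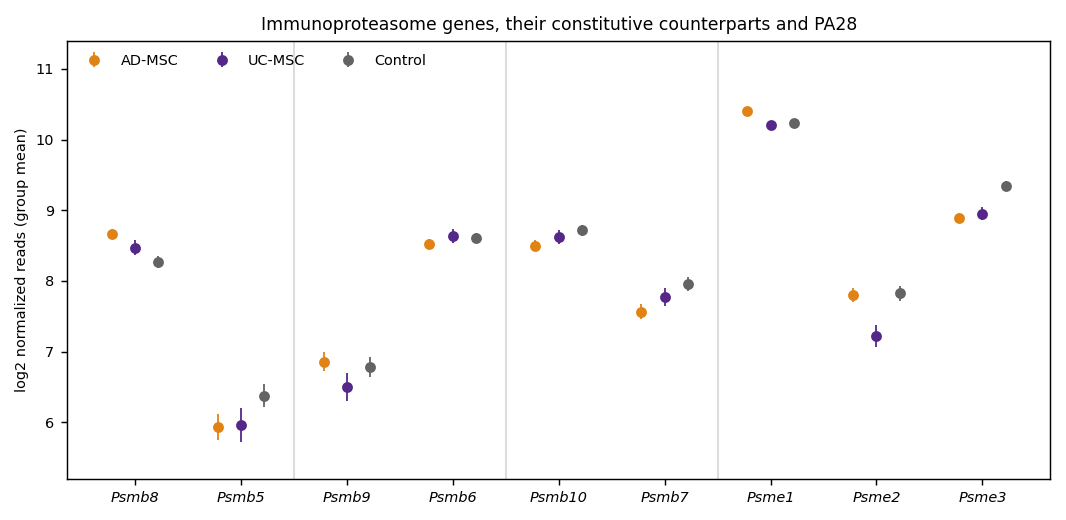
Log2 normalized reads of the immunoproteasome genes beside their constitutive counterparts and of the PA28 genes, in AD-MSC, UC-MSC and Control colons from left to right for each gene. Points are the authors' group means and bars the 95% counting intervals; *Psmb8* is above Control in both MSC groups, and *Psme2* is lower in UC-MSC (149 normalized reads) than in AD-MSC (223) or Control (226).

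The α rings form the outer gates of the core. In AD-MSC colons all 7 α subunits were lower than in Control, against 51% of all genes, with a median of -0.27. Of these, *Psma3* (-0.36), *Psma5* (-0.38) and *Psma6* (-0.33) were called lower, against 17.8% of all genes, the other 4 being between -0.27 and -0.17. In UC-MSC colons all 7 were also lower, against 51.8% of all genes, with a median of -0.47. Here 5 were called lower, against 23% of all genes, *Psma5* (-0.65), *Psma1* (-0.49), *Psma2* (-0.49), *Psma7* (-0.47) and *Psma4* (-0.33). *Psma5* had the lowest value of the ring in both comparisons, with 195 normalized reads in AD-MSC, 162 in UC-MSC and 255 in Control colons, and shares 55.4% of its windows with other genes. *Psma1*, which shares none, had 428 in AD-MSC, 363 in UC-MSC and 509 in Control colons. *Psma3* was at -0.01 in UC-MSC (counting interval -0.23 to 0.21), a value whose sign turned when the differences were centred on the median gene.

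Of the β subunits, *Psmb4* had the greatest difference of all core members in both comparisons. It encodes β7, a non-catalytic subunit, and had 251 normalized reads in AD-MSC, 257 in UC-MSC and 434 in Control colons. Both MSC groups lay well below Control and close to each other, at -0.79 for AD-MSC (counting interval -0.91 to -0.67, 1.73-fold lower) and -0.76 for UC-MSC (-0.90 to -0.62, 1.69-fold lower). None of its windows is shared with another gene. *Psmb3*, encoding the non-catalytic β3, had 128 normalized reads in AD-MSC, 118 in UC-MSC and 189 in Control, at -0.57 for AD-MSC and -0.68 for UC-MSC, and shares 55.8% of its windows with other genes. *Psmb2* was at -0.29 for AD-MSC and -0.33 for UC-MSC. *Psmb1* was the core member nearest to 0 in AD-MSC colons, at -0.01 (-0.09 to 0.08), a sign that turned with centring on the median gene, and was at -0.22 in UC-MSC.

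Within the 19S base, the ATPase ring was lower throughout. Against Control, the median of the 6 *Psmc* genes was -0.27 with AD-MSC, and with UC-MSC it was -0.18. *Psmc4*, encoding Rpt3, had 307 normalized reads in AD-MSC, 393 in UC-MSC and 427 in Control colons, so that AD-MSC was lower than Control (-0.48, counting interval -0.59 to -0.37) while UC-MSC lay closer to Control (-0.12). *Psmc2*, encoding Rpt1, was lower in both groups, with 344 in AD-MSC, 361 in UC-MSC and 475 in Control, at -0.46 for AD-MSC and -0.40 for UC-MSC. *Psmc1*, *Psmc3*, *Psmc5* and *Psmc6* were between -0.29 and -0.18 for AD-MSC and between -0.31 and -0.09 for UC-MSC.

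Among the 11 non-ATPase subunits, the median was -0.31 for AD-MSC, against -0.18 for UC-MSC. *Psmd6*, encoding Rpn7 of the 19S lid, had 271 normalized reads in AD-MSC, 282 in UC-MSC and 391 in Control colons, at -0.53 for AD-MSC and -0.47 for UC-MSC. *Psmd3*, encoding Rpn3 of the lid, had 379 in AD-MSC, 407 in UC-MSC and 545 in Control colons, at -0.52 for AD-MSC and -0.42 for UC-MSC. Both genes were called lower in each MSC group, as were *Psmd1* and *Psmd12*, encoding the base scaffold Rpn2 and the lid subunit Rpn5, at -0.39 each for AD-MSC and at -0.33 and -0.32 for UC-MSC. *Psmd7*, encoding the lid subunit Rpn8, was called lower in AD-MSC colons (-0.38) and was at -0.07 in UC-MSC, a difference between the MSC groups of 0.30. *Psmd4*, the ubiquitin receptor Rpn10, was the non-ATPase member nearest to 0, at -0.04 for AD-MSC and -0.02 for UC-MSC. *Psmd14*, the lid deubiquitinase Rpn11, was at -0.16 for AD-MSC and -0.18 for UC-MSC, and *Psmd2*, *Psmd8*, *Psmd11* and *Psmd13* lay between -0.31 and -0.20 for AD-MSC and between -0.21 and -0.07 for UC-MSC.

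Of the other activators, counted among the 19, *Psme3* was called lower and *Psme4* was not. *Psme3*, encoding the nuclear cap PA28γ, had 476 normalized reads in AD-MSC, 496 in UC-MSC and 652 in Control colons, at -0.45 for AD-MSC (counting interval -0.54 to -0.36) and -0.39 for UC-MSC (-0.50 to -0.29). *Psme4*, encoding the PA200 cap, was at -0.02 for AD-MSC (-0.08 to 0.04) and -0.22 for UC-MSC.

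The 8 assembly factors and inhibitors were all below Control in AD-MSC (median -0.18, 51% of all genes lower) and in UC-MSC (median -0.25, 51.8% of all genes lower). *Psmg2* and *Psmg3*, chaperones that help build the α ring, were called lower in both. These 2 of 8 compare with 17.8% of all genes called lower for AD-MSC and 23% for UC-MSC, so the share was near that of all genes. *Psmg3* had 32.1 normalized reads in AD-MSC, 22.7 in UC-MSC and 41.1 in Control, at -0.36 for AD-MSC and -0.86 for UC-MSC. *Psmg2* had 39.3 in AD-MSC, 31.3 in UC-MSC and 50.8 in Control, at -0.37 for AD-MSC and -0.70 for UC-MSC. These are low levels with wide counting intervals, -1.33 to -0.39 for *Psmg3* in UC-MSC. The other 6, *Psmg1*, *Psmg4*, the 19S chaperones *Psmd5*, *Psmd9* and *Psmd10* and the inhibitor *Psmf1* (PI31), were between -0.23 and -0.04 for AD-MSC and between -0.27 and -0.01 for UC-MSC, where the sign of *Psmg1* turned with centring. Counting intervals spanned both signs for *Psmd9*, *Psmd10*, *Psmg1* and *Psmg4* in both MSC groups, and for *Psmf1* in AD-MSC.

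*Psmb11* had, in UC-MSC colons, the greatest difference from Control of any member. It encodes β5t, which is known from the cortical epithelium of the thymus. Its mean was 27.4 normalized reads in AD-MSC, 89.9 in UC-MSC and 41.0 in Control colons. UC-MSC was thus the highest group, at 1.13 against Control (counting interval 0.82 to 1.45, 2.19-fold), a size reached by 4.98% of all genes in that direction, while AD-MSC was at -0.58 (-0.95 to -0.22). Per kilobase of transcript, it was at 6.44 normalized reads in AD-MSC, 21.2 in UC-MSC and 9.66 in Control colons, below *Psmb5* at 67.9 in AD-MSC, 69.4 in UC-MSC and 92.5 in Control colons. *Psmb11* starts 7315 bases from *Psmb5* on the other strand of chromosome 14 (chr14:54625310-54629556), and no other gene of the table with at least 2 reads overlaps it. *Psmc3ip* had 18.98 normalized reads in AD-MSC, 21.4 in UC-MSC and 15.5 in Control colons. It was at 0.30 for AD-MSC and 0.47 for UC-MSC, where it was called higher, with counting intervals that include 0, and it overlaps *Mlx* on the other strand.

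**Figure D4:**
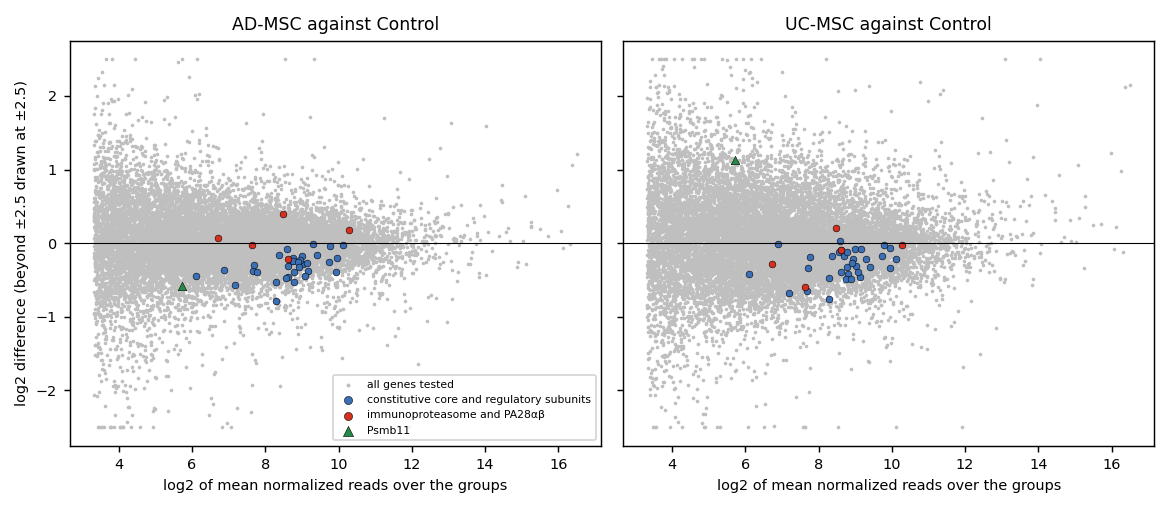
Log2 difference from Control against mean expression for all 15040 genes compared (grey), AD-MSC on the left and UC-MSC on the right, with the constitutive core and regulatory subunits in blue, the immunoproteasome genes in red and *Psmb11* as a green triangle. The 33 blue points lie below 0 in AD-MSC colons and 32 of 33 do in UC-MSC colons, and *Psmb11* lies at 1.13 in UC-MSC colons.

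Between the MSC groups, the members had no common direction. UC-MSC minus AD-MSC had a median of 0.03 over the 49 genes, with 21 lower, against 51.2% of all genes, and 28 higher. The core had a median of -0.08 with 8 of 14 lower, the α rings being at -0.20, and 16 of 19 regulatory subunits were higher, their median being 0.07. The direction of this last median turned with the scaling of the groups (-0.03 with equal group totals). The immunoproteasome genes were lower in UC-MSC than in AD-MSC in 4 of 5 cases, with a median of -0.20.

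Between UC-MSC and AD-MSC colons, 7 of the 49 members were called different, in each direction a smaller share than of all genes. The 4 that were lower in UC-MSC, against 18.8% of all genes, were *Psme2* (1.49-fold), *Psmg3* (1.42-fold), *Psmb9* (1.28-fold) and *Psmg2* (log2 difference -0.33). The 3 that were higher, against 22.2% of all genes, were *Psmb11* (3.29-fold), *Psma3* (1.28-fold) and *Psmc4* (1.28-fold). *Psmb11* was the one member beyond 2-fold, a size that 4.43% of all genes reached in that direction.

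The chromosomal neighbours of the immunoproteasome genes include other genes of antigen processing. *Psmb9* and *Tap1* overlap by 212 bases head to head, *Tap1* ends within 496 bases of *Psmb8*, and *Tap2* follows 2073 bases further. *Tap1* and *Tap2* encode the transporter that carries proteasome products into the endoplasmic reticulum. *Tap2* was above Control in both groups, at 0.50 for AD-MSC and 0.42 for UC-MSC, and *Tap1* in AD-MSC (0.35) with -0.03 in UC-MSC. *Psmb9* shares 12.5% of its windows with *Tap1*, and whether the counting used strand is not given in the sources used here. On chromosome 14, *Psme1* and *Psme2* lie 5912 bases apart, near *Irf9*, a transcription factor of interferon signalling, which was at 0.37 for AD-MSC and 0.12 for UC-MSC. *H2-Ob*, a B cell class II gene further along chromosome 17, was at -2.33 for AD-MSC and -0.58 for UC-MSC.

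**Figure D5:**
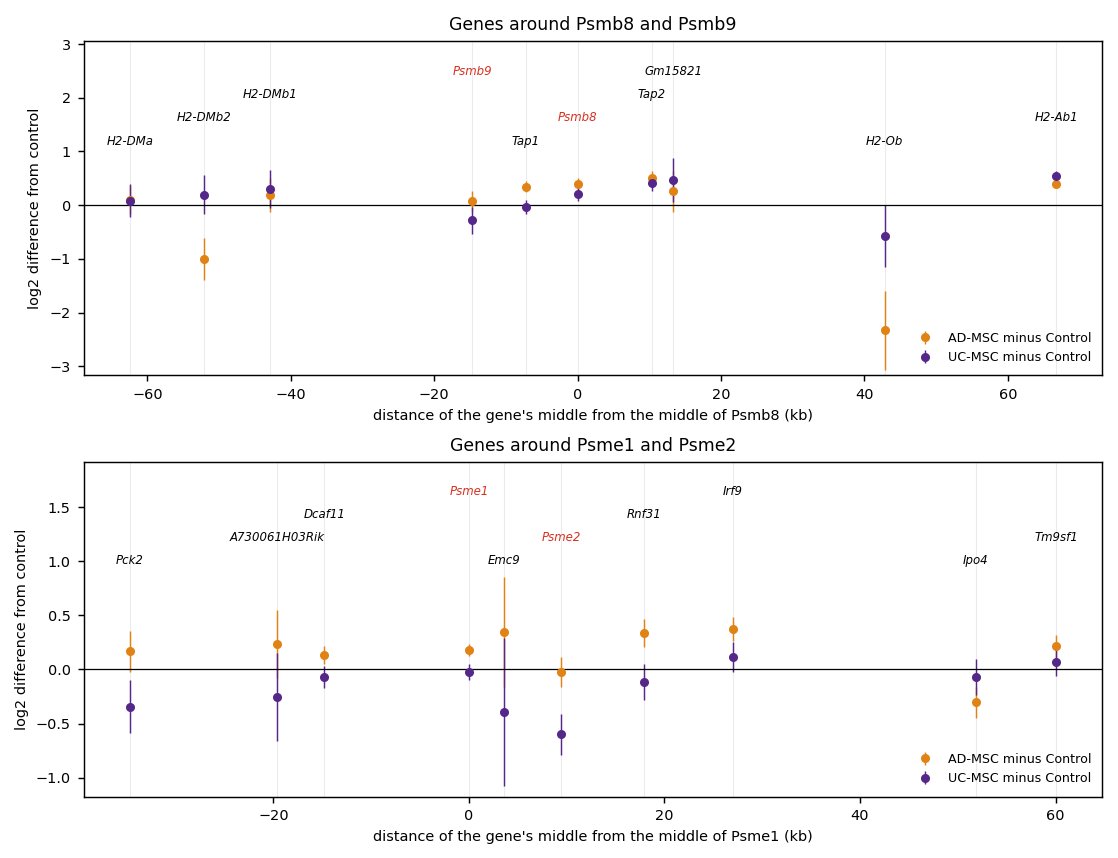
Log2 differences from Control of the genes around *Psmb8* and *Psmb9* (top) and around *Psme1* and *Psme2* (bottom), against the distance from the middle of *Psmb8* or *Psme1* in kilobases. Orange is AD-MSC, purple UC-MSC, and bars are 95% counting intervals; *Psmb8* lies at 0.40 and 0.20, *Tap2* at 0.50 and 0.42 and *H2-Ob* at -2.33 and -0.58.

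Other parts of the ubiquitin and proteasome system were read from lists of companion genes. Of 15 further proteasome parts and shuttle factors, 14 were compared. Against Control, 12 were lower in AD-MSC colons (median -0.26, 51% of all genes lower) and 11 in UC-MSC colons (median -0.31, 51.8% of all genes lower). They included the ubiquitin receptor *Adrm1* (-0.54 for AD-MSC and -0.29 for UC-MSC) and the deubiquitinases *Usp14* (-0.50 for AD-MSC and -0.52 for UC-MSC) and *Uchl5* (-0.26 for AD-MSC and -0.77 for UC-MSC). *Shfm1*, which encodes a small subunit of the 19S lid, was at 0.04 for AD-MSC and 0.29 for UC-MSC, and *Zfand5* at 0.10 for AD-MSC and 0.16 for UC-MSC. Most thus lay on the same side of Control as the constitutive subunits. For the 9 regulators of proteasome genes, the median was -0.10 with AD-MSC and -0.23 with UC-MSC. Of these, *Nfe2l1*, the factor that raises proteasome transcription when proteasome activity falls short, was at 0.09 for AD-MSC and 0.05 for UC-MSC. *Nfe2l2*, a factor of the antioxidant response, was at -0.25 for AD-MSC and -0.47 for UC-MSC. The 5 ubiquitin genes had a median of -0.07 for AD-MSC and -0.03 for UC-MSC.

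Of 13 interferon signalling genes compared, 10 were higher than Control in AD-MSC colons (median 0.22), against 7372 of all 15040 genes. Of the 13, 6 were called higher for AD-MSC, against 16.8% of all genes. In UC-MSC colons 10 were higher (median 0.16), against 7246 of all 15040 genes, and 5 were called higher, against 24.7% of all genes. *Irf1*, a transcription factor of immunoproteasome genes, had 1298 normalized reads in AD-MSC, 1153 in UC-MSC and 874 in Control colons (0.57 for AD-MSC and 0.40 for UC-MSC). *Gbp2*, an interferon-induced GTPase, was at 0.91 for AD-MSC and 1.06 for UC-MSC, and *Irf7* at 0.93 for AD-MSC and 0.48 for UC-MSC. The chemokine *Cxcl10* was an exception at -0.77 for AD-MSC and -0.89 for UC-MSC. *Ifng* itself was below the minimum, at 1.498 normalized reads in AD-MSC, 1.72 in UC-MSC and 1.43 in Control. Of 11 antigen processing genes, 5 were called higher in AD-MSC (median 0.21), *H2-K1*, *B2m*, *Tap1*, *Tap2* and *Tapbp*, against 16.8% of all genes. In UC-MSC, 2 were called higher (median 0.00), *Tap2* and *Nlrc5*, a share below the 24.7% of all genes. The chaperone *Calr* was lower in AD-MSC (-0.39).

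Motif matches in the promoter windows were counted by class. Windows were found for 41 of the 50 members, and both strands were searched. The ETS core CCGGAA was in 16 of 27 constitutive core and regulatory genes (59.3%), *Psmb4* among them, and in 0 of 5 immunoproteasome genes, with a share of 16.7% over all 27025 genes and 29.4% over the 9712 protein-coding genes compared that had a window. AANNGAAA was in 1 of 5 immunoproteasome genes (*Psme1*) and 9 of 27 constitutive core and regulatory genes (33.3%). Its share was 26.7% over all genes and 21.5% over the compared genes. TGACNNNGC was in 5 of 27 (18.5%), *Psmb5* among them, and 0 of 5, with 13.99% over all genes and 17.2% over those compared. CCAAT was in 11 of 27 (40.7%) and 1 of 5 (*Psmb9*), with 41.1% over all genes and 42.6% over those compared. These motifs were chosen after the values were seen, no match to one overlaps a match to another in the windows printed, and a match describes letters in the window and not a bound site. The windows of *Psmb9* and *Tap1* share 275 bases. For *Psmb8*, *Psmb9* and *Psme1*, the window printed lies inside the gene's annotated bounds and does not cover the bases before its outer start. Counts for the 5 immunoproteasome genes therefore need not cover the same stretch as those for the 27.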

How the data were processed

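Total RNA of the medial colon (3 AD-MSC, 3 UC-MSC and 3 Control libraries; samples of low RNA integrity had been left out) was made into stranded Pico Input libraries and read as 50-base single ends on a HiSeq2500. Of tools and builds, bcl2fastq 1.8.4, DESeq and GRCm38/mm10 stand in the processing notes of the submitters and Strand NGS in the methods. Which aligner was used, and whether strand was counted, is not given in the sources used here.

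The authors deposited 2 columns per group, a mean of raw reads and a mean of log2 normalized reads, with no columns of single libraries. Above 50 raw reads, the columns of a group differed on the log2 scale by 1 constant within 0.001 for 99.79% to 99.97% of genes. An arithmetic mean of raw reads would vary around such a constant, so the raw means too appear to be averaged on the log2 scale. Tests on single libraries could not be run, so differences of the authors' log2 means were taken for genes that averaged 10 normalized reads or more over the groups, with a counting error from the raw means. Other scalings, a pseudocount of 10 and other minimum means were tried. Shared windows were counted in GENCODE M21 transcripts. The steps were tested on simulated data. Python 3.11.15, numpy 2.4.6, pandas 2.3.3 and matplotlib 3.10.9 were used. Immunoproteasome genes, their counterparts and every gene 25% higher or 20% lower were named, with up to 4 members of each other class or list. Members and lists were chosen with earlier results of these data known. Some items are not reported here.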

Additional observations from a re-analysis of the deposited data

How the results depend on the processing

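Of 126 class medians, counts and ratios recomputed under an alternative, 116 stayed within the limits set. The limit was the counting interval for a ratio and 1.5 times for a count. For a class median it was the median counting interval of the single members, a loose limit for a median over several genes. The other minimum means could not change any median or count, because every member of these classes averaged more than 50 normalized reads. Those recomputations are counted among the 116 and are no check. Within these limits, the core median for UC-MSC minus AD-MSC still reached -0.17 (-0.08 as deposited) and the immunoproteasome median for UC-MSC minus Control -0.23 (-0.10 as deposited) with equal group totals. Equal group totals moved the median of all UC-MSC minus Control differences by -0.13, and the share of higher genes among those called to 36.1%, against 51.8% as deposited (UC-MSC minus AD-MSC, 40.4% against 54.2%). On that scale the core median was -0.51 and the regulatory median -0.31 for UC-MSC minus Control, and for UC-MSC minus AD-MSC the regulatory median turned to -0.029. Members called different then numbered 3 in the core for UC-MSC minus AD-MSC, all lower, where 1 was called higher as deposited, and without the 10 most abundant genes 1 was called lower. With equal totals, and also without the 10 most abundant genes, they numbered 2 for the immunoproteasome in UC-MSC minus Control (1 as deposited) and 0 for the regulatory particles in UC-MSC minus AD-MSC (1 as deposited). In an alternative chosen after seeing the data, members sharing over 10% of their windows were left out, which left 2 immunoproteasome genes, with medians of 0.052 for UC-MSC minus Control and -0.038 for UC-MSC minus AD-MSC. No paired analysis was possible because the table holds 1 mean per group, and leaving out single replicates was not possible for the same reason. Counting error was greatest for low members such as *Psmc3ip*, *Psmg3* and *Psmg2*.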

Other observations

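The table has 3 further rows whose symbols match the proteasome pattern but that it types as pseudogenes. *Psmb5-ps* was at 1.29 normalized reads in AD-MSC, 1 in UC-MSC and 1.63 in Control colons. *Psmb6-ps* and *Psmb7-ps2* were at the floor of 1 normalized read in all 3 groups.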
